A study of Mus musculus with 11 samples.

Results

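The general machinery that removes messenger RNA was followed as 44 listed genes out of the 53801 genes in the count files. They comprise 11 genes of the RNA exosome, 11 of the CCR4-NOT deadenylase, 3 of the PAN2-PAN3 and PARN deadenylases, 8 of decapping, 7 of the LSM ring, 2 exonucleases that work from the 5′ end and 2 Staufen genes. The list was drawn up by name, with no threshold on measured values, though with earlier results of these data known. All 44 were found by gene symbol, and all 44 had enough reads to be tested in each comparison.

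Decay of most mRNAs starts at the poly(A) tail. PAN2-PAN3 and then CCR4-NOT shorten the tail, the LSM ring and PATL1 bind the shortened end, and DCP2 with its activators takes off the cap. The body is then degraded from the 5′ end by XRN1 in the cytoplasm, while the exosome, with DIS3, DIS3L or EXOSC10 as its nuclease, degrades RNA from the 3′ end. SMG6 is the endonuclease of nonsense-mediated decay, which cuts transcripts near a premature stop codon and leaves the fragments to exonucleases such as XRN1 and the exosome.

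Total RNA without ribosomal RNA was sequenced from 11 cultures of neural progenitor cells (NPCs), grown from brains of E13.5 embryos on a mixed C57BL/6 and 129SV background. Every embryo was *Smg6* Flox/Flox, and the groups differed in the tamoxifen-inducible Cre driven from the Rosa locus and in 4-hydroxytamoxifen (4-OHT), the drug that lets this Cre into the nucleus. Ctr cells carried RosaCreER tg/+ and got no drug (n = 3, embryos labelled SMH_128, SMH_132 and SMH_133). Ctr + 4-OHT cells lacked Cre (RosaCreER +/+) and got the drug (n = 4, embryos SMH_125, SMH_126, SMH_129 and SMH_131). *Smg6*-iKO cells carried RosaCreER tg/+ and got the drug, which deletes *Smg6* (n = 4, embryos SMH_127, SMH_128, SMH_132 and SMH_133). The labels give 1 µM 4-OHT for 3 days, and the series' own text gives a longer time from the start of treatment to the analysis. The results of the study's paper give that longer time as the exposure, and its methods as the time from 4-OHT treatment to RNA isolation. The sources thus do not settle how long the cells had the drug. Ctr + 4-OHT differs from Ctr in both drug and Cre, and these cannot be told apart. *Smg6*-iKO differs from Ctr in the drug as well as the deletion, and in that comparison these cannot be told apart either. Values of single libraries are listed in the order of the embryo numbers above.

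Each library had 26418249 to 33756875 reads assigned to genes. *Smg6* itself stood at 74.4 ± 4.96 CPM (counts scaled to a common library size; mean ± SD, n = 3) in Ctr, 69.3 ± 3.22 (n = 4) in Ctr + 4-OHT and 66.0 ± 4.57 (n = 4) in *Smg6*-iKO. Neither difference of *Smg6*-iKO passed the test on its groups (edgeR adjusted p = 0.703 and 0.148), but with the embryo as a block *Smg6* fell against Ctr by 0.15 on the log2 scale (edgeR adjusted p = 0.0423). The counts cover the whole gene and do not single out the floxed part, so they check the deletion only weakly. All 10 progenitor markers were found, *Sox2*, *Nes* and *Pax6* among them, with summed levels of 5309 to 5545 CPM in Ctr, 4655 to 5769 in Ctr + 4-OHT and 4581 to 5158 in *Smg6*-iKO. The 6 neuron markers summed to 1737 to 1916, 1598 to 2600 and 2025 to 2336 CPM in the same order, the 5 astrocyte markers to 1589 to 1948, 1612 to 1852 and 1316 to 1721, the 6 of the oligodendrocyte lineage to 617 to 680.4, 687 to 918 and 603 to 737, and the 4 of pericytes and meninges to 118 to 173, 101 to 324 and 85.0 to 516. The astrocyte sum was mostly *Slc1a3* (means of 1317, 1207 and 1028 CPM in the same order) and *Aldh1l1* (421, 418 and 387), both lowest in *Smg6*-iKO. The other astrocyte markers had their highest mean there: *Gfap* (17.7, 29.1 and 44.3), *Aqp4* (34.8, 35.5 and 37.5) and *S100b* (1.52, 1.51 and 2.28). Endothelial markers summed to at most 7.35 CPM in any library, and 5 of 6 microglia and 4 of 4 erythroid markers were under 1 CPM in every library. The *Smg6*-iKO libraries thus all lay above Ctr in neuron markers and below it in progenitor markers, and the part of this in the results was not tested.

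The decay genes differed little between the groups. *Lsm3* and *Lsm4*, subunits of the LSM ring, fell in *Smg6*-iKO against Ctr, and *Pan3*, the adaptor that brings the PAN2 nuclease to poly(A), rose. Against Ctr + 4-OHT, which had the drug too, *Lsm3*, *Lsm4* and *Pan3* did not pass the test (edgeR adjusted p = 0.121, 0.223 and 0.0647). Exosome, CCR4-NOT and decapping genes did not pass this test in any of the 3 comparisons, though 4 of them (*Exosc8*, *Cnot6*, *Ddx6* and *Pnrc2*) fell against Ctr with the embryo as a block.

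Against Ctr, 3 of 44 members (6.82%) were called at an edgeR adjusted p under 0.05, beside 9.25% of all 17974 genes tested. Of these, 1 of 44 rose (4.27% of all genes) and 2 of 44 fell (4.98%). Embryos SMH_128, SMH_132 and SMH_133 gave a library to each of these groups, and with the embryo as a block, which uses the 6 libraries of these embryos and drops the *Smg6*-iKO library of embryo SMH_127, 9 of 44 members (20.5%) were called beside 21.9% of all genes, 1 of them higher (2.27%, beside 10.4%) and 8 lower (18.2%, beside 11.5%). The 6 added members, all lower, were *Exosc8*, *Cnot6*, *Parn*, *Ddx6*, *Pnrc2* and *Lsm6*. DESeq2 called 6 of 44 (13.6%, beside 16.9%), and edgeR with a correction for gene length called 8 of 44 (18.2%, beside 10.9%). Against Ctr + 4-OHT, 0 of 44 members were called by edgeR, beside 1.17% of all genes (0.757% higher and 0.416% lower), and 1 of 44 (*Lsm6*) with the length correction, beside 1.42%. Limma-voom also called 0, beside 1.11% of all genes, DESeq2 called *Pan3*, *Lsm3* and *Lsm6* (6.82% of members beside 6.06% of all genes), and 7 of 44 members (15.9%) had an unadjusted p under 0.05, beside 16.7% of all genes. Between Ctr + 4-OHT and Ctr, 0 of 44 were called by edgeR, DESeq2 or limma-voom, beside 0.221% of all genes by edgeR (0.0396% higher and 0.181% lower), 0.825% by DESeq2 and 0.198% by limma-voom, and 3 of 44 had an unadjusted p under 0.05, beside 8.28%. Most of these shares of the members were below their background. Above it were, against Ctr, the lower calls with the embryo as a block and all calls with the length correction, and, against Ctr + 4-OHT, the calls of DESeq2 and of the length correction, by less than 1 gene each. Against Ctr, 1 member was called without Ctr SMH_128, without Ctr SMH_132 or without *Smg6*-iKO SMH_133, where 3.16%, 3.15% and 3.23% of all genes were.

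**Figure D1:**
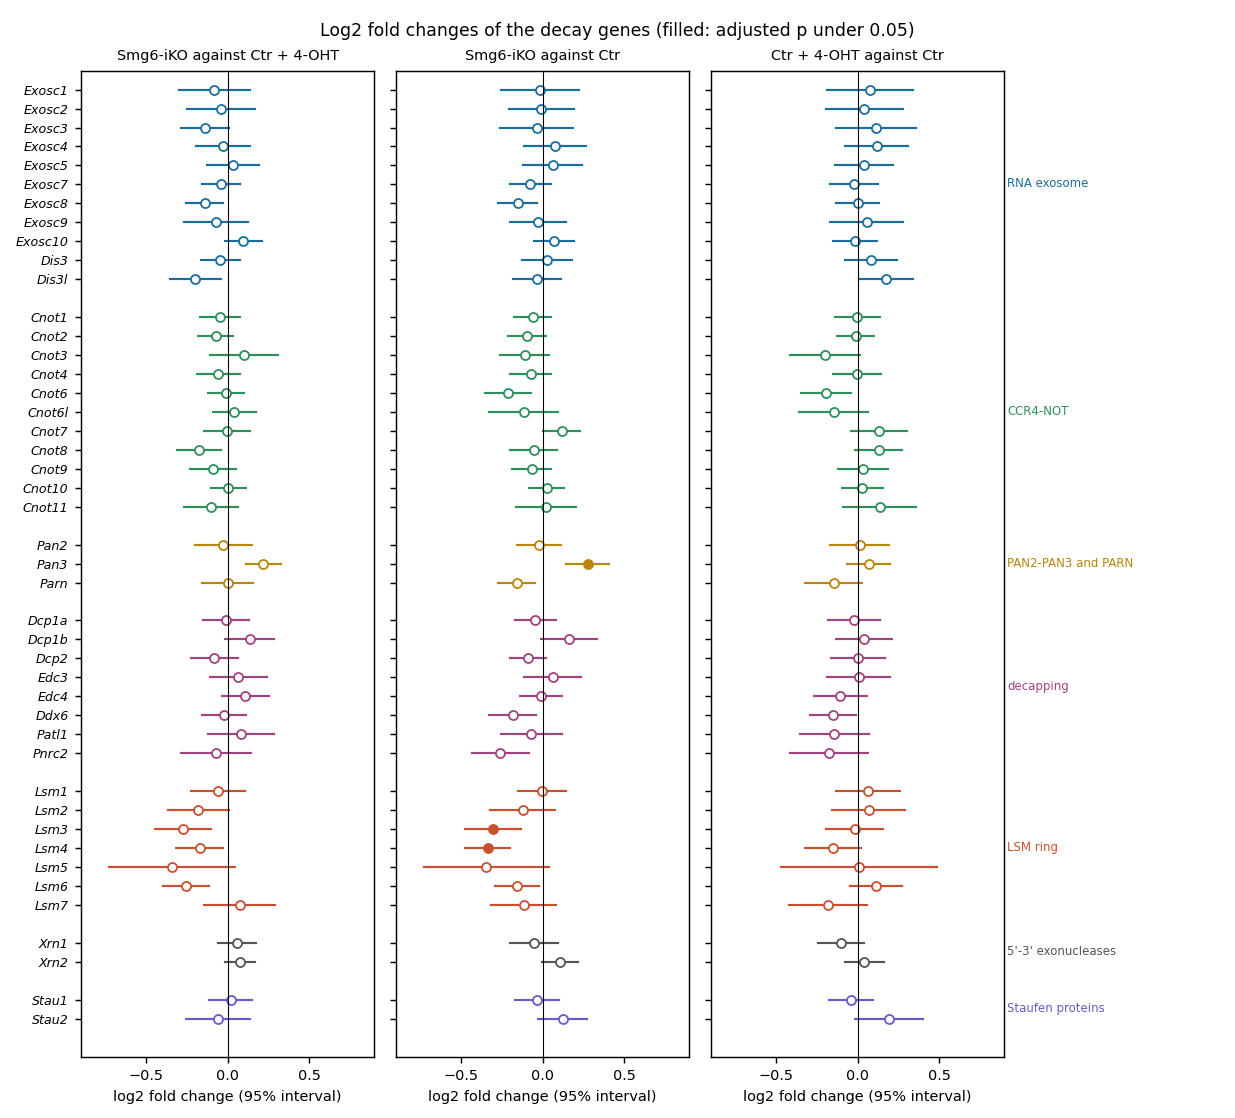
Log2 fold change (point) and its 95% interval (line) of each of the 44 genes in 3 comparisons, from edgeR's quasi-likelihood fit, ordered and colored by complex. Filled points passed an adjusted p of 0.05: *Pan3* to the right and *Lsm3* and *Lsm4* to the left in *Smg6*-iKO against Ctr, and no gene in the other panels.

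The intervals bound what could have gone unseen, as the plot of fold changes shows. For 43 of 44 members the 95% interval lay within 0.5 of 0 on the log2 scale (a 1.41-fold change) against Ctr + 4-OHT, for 43 of 44 against Ctr, and for 44 of 44 between the controls. The shares over all genes tested were 64.1%, 60.4% and 60.3%. The single exception was *Lsm5*, with 46 to 97 reads per library. The members were also higher than most genes, with a median of 9.42 CPM per kb of exon against 4.33 over the 18123 genes kept. The median log2 fold change of the 44 members was -0.041 against Ctr + 4-OHT and -0.050 against Ctr, beside 0.012 and 0.0055 over all genes tested. Of the 44, 30 were below 0 in the first comparison (68.2%, beside 47.2% of all genes) and 32 in the second (72.7%, beside 49% of all genes). Between the controls the median was 0.0066 and 19 of 44 were below 0 (43.2%, beside 48.8%). In RNA from whole cultures, fewer cells of a type and less RNA per cell cannot be told apart.

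The PAN2-PAN3 deadenylase, which starts on the tail, and the separate deadenylase PARN have 3 genes in the list, of which *Pan3* (chr5:147430161-147548502, plus strand, GRCm38) was the member that rose. Its level in CPM was 124, 119.8 and 111 in Ctr, 122, 123, 129 and 123 in Ctr + 4-OHT and 146, 150.2, 135 and 142 in *Smg6*-iKO. All *Smg6*-iKO libraries lay above all libraries of both controls, as was so for 2 of 44 members and for 2.9% of all genes. *Pan3* was higher than in Ctr by a log2 fold change of 0.28 ± 0.059 (SE; 95% interval 0.15 to 0.41, edgeR adjusted p = 0.0191), or 0.27 ± 0.049 with the embryo as a block. Against Ctr + 4-OHT the log2 fold change was 0.22 ± 0.049 and did not pass (edgeR adjusted p = 0.0647). The two-sided exact permutation p of 0.0286, the smallest that 4 against 4 libraries allow, only restates that these groups do not overlap. Within embryos SMH_128, SMH_132 and SMH_133, *Smg6*-iKO exceeded Ctr by 0.27, 0.17 and 0.35 on the log2 CPM scale, so the direction was shared by all 3. Its call against Ctr was lost without Ctr SMH_132, Ctr SMH_133 or *Smg6*-iKO SMH_133 (edgeR adjusted p = 0.0693, 0.0752 and 0.0598). *Pan3* has 14955 exon bases in the files, more than any other member but *Cnot1* and *Xrn1*, and after a correction for length its log2 fold change was 0.23 relative to Ctr (edgeR adjusted p = 0.0450) and 0.15 against Ctr + 4-OHT (0.212).

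*Pan2*, the nuclease that *Pan3* partners, was not called in any comparison. Its mean level was 79.7 ± 2.71 CPM in Ctr (n = 3), 80.4 ± 7.88 in Ctr + 4-OHT (n = 4) and 78.3 ± 4.68 in *Smg6*-iKO (n = 4), and its log2 fold change against Ctr was -0.025 ± 0.061. Whether the 2 genes' changes differ was not tested. *Parn*, which encodes a separate poly(A)-specific ribonuclease, stood at 58.8, 58.5 and 57.5 CPM in Ctr, 46.3, 54.6, 57.3 and 52.1 in Ctr + 4-OHT and 53.5, 52.8, 51.3 and 51.2 in *Smg6*-iKO. Every *Smg6*-iKO and every Ctr + 4-OHT library of *Parn* lay below all Ctr libraries, while the 2 drug-treated groups overlapped. Its log2 fold change against Ctr was -0.16 ± 0.052 (edgeR adjusted p = 0.0786), and *Parn* fell with the embryo as a block (-0.17 ± 0.052, edgeR adjusted p = 0.0257). With the length correction *Parn* was also called lower against Ctr (edgeR adjusted p = 0.0351). Against Ctr + 4-OHT its log2 fold change was -0.00056 ± 0.071.

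The upstream sequences of the called members, as far as the table of RefSeq promoters (GRCm38.p6) has them, are shown here for the genes that the comparison against Ctr singled out. The windows end before the gene starts in the count files and were searched on both strands for CCAAT (the CCAAT box), for GGGCGG (the GC box bound by SP1) and for CCGGAAG (a motif of ETS factors), with matches in capitals.
*Pan3*, chr5:147429906-147430155, plus strand, 250 bases: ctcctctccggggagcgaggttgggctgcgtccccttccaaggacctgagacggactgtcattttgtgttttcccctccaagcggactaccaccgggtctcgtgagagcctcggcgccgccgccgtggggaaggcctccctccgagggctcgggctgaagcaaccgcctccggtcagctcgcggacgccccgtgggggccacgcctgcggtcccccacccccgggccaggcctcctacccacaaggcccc
*Lsm3*, chr6:91515785-91515927, plus strand, 143 bases: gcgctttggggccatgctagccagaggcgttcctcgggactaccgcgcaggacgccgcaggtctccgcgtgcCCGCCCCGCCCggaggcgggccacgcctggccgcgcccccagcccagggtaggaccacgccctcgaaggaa
The *Lsm3* window held 2 matches of GGGCGG, on the minus strand and sharing 1 base, and 15.7% of the 32851 promoters in the table hold that motif in a window of the same length and place. In the *Pan3* window no match of the 3 motifs was found, which 33.8%, 32.7% and 6.91% of promoters hold. These matches are a description of the letters, and no binding was measured.

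**Figure D2:**
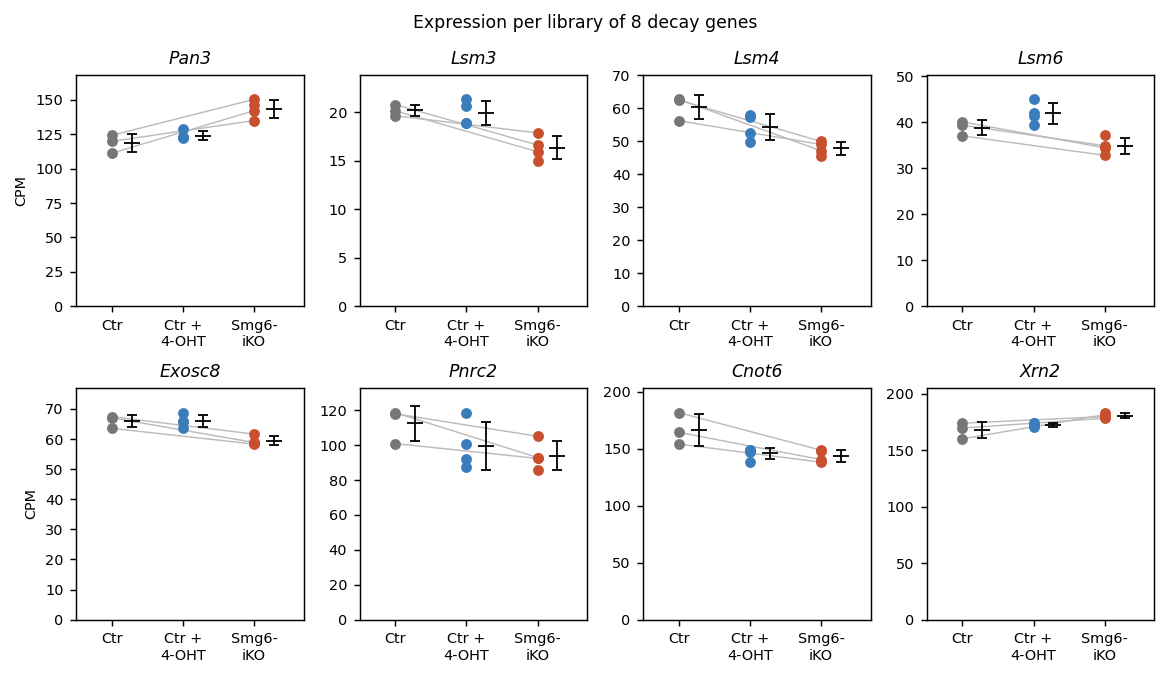
CPM (linear axis from 0) of 8 decay genes in each library of Ctr (n = 3), Ctr + 4-OHT (n = 4) and *Smg6*-iKO (n = 4). Points are libraries, black bars the group mean ± SD, and gray lines join the 2 libraries of embryos SMH_128, SMH_132 and SMH_133: *Pan3* and *Xrn2* lay above all control libraries in *Smg6*-iKO, *Lsm3* and *Exosc8* below.

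Among the 11 CCR4-NOT genes, 0 were called against either control, beside 1.17% and 9.25% of all genes, with a median log2 fold change of -0.047 relative to Ctr + 4-OHT (8 of 11 below 0) and -0.068 against Ctr (8 of 11 below 0), beside 47.2% and 49% of all genes below 0. Both medians stayed negative under all alternatives tried, from -0.12 to -0.030 in the first comparison and from -0.12 to -0.035 in the second, and the log2 fold changes of single genes ranged from -0.17 for *Cnot8* to 0.10 for *Cnot3* in the first. *Cnot6*, which encodes a catalytic subunit of the CCR4 type, differed most from Ctr. It stood at 154, 181 and 164 CPM in Ctr, 147, 138, 149 and 149 in Ctr + 4-OHT and 148, 138, 149 and 140.4 in *Smg6*-iKO. The drug-treated groups overlapped with each other, and each lay below Ctr in every library. Its log2 fold change was -0.21 ± 0.064 in *Smg6*-iKO against Ctr (edgeR adjusted p = 0.0609), -0.19 ± 0.068 in Ctr + 4-OHT against Ctr (edgeR adjusted p = 0.479) and -0.0089 ± 0.050 between the drug-treated groups. With the embryo as a block *Cnot6* fell by 0.22 on the log2 scale against Ctr (edgeR adjusted p = 0.00285). It was also called lower against Ctr by DESeq2 on the groups compared and by edgeR with the length correction (edgeR adjusted p = 0.0280).

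*Cnot8*, a catalytic subunit of the CAF1 type, differed most from Ctr + 4-OHT within this complex. Its CPM were 64.9, 61.3 and 66.2 in Ctr, 75.1, 69.7, 67.5 and 68.4 in Ctr + 4-OHT and 62.5, 66.7, 57.6 and 60.1 in *Smg6*-iKO. *Smg6*-iKO lay below Ctr + 4-OHT in every library and overlapped with Ctr, and Ctr + 4-OHT lay above Ctr in every library. The log2 fold change was -0.17 ± 0.061 relative to Ctr + 4-OHT (edgeR adjusted p = 0.187) and -0.055 ± 0.065 against Ctr. Of its 50-base windows, 7.8% also occur in the processed pseudogene *Gm18860*, and reads of such stretches were not counted.

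The other subunits stayed close to the controls. *Cnot1*, its scaffold and the member with the most reads (9946 to 13074 per library), had a log2 fold change of -0.047 ± 0.055 relative to Ctr + 4-OHT and -0.060 ± 0.052 against Ctr. *Cnot2*, a subunit of the NOT module and the highest of the complex per length, stood at 122, 124 and 120.5 CPM in Ctr, 125.1, 122, 119 and 119 in Ctr + 4-OHT and 116, 122, 108 and 112 in *Smg6*-iKO, with overlap between all groups. *Cnot4*, the E3 ubiquitin ligase of the complex and its lowest member per length, stood at 40.0, 41.2 and 39.4 CPM in Ctr, 38.4, 41.8, 40.1 and 40.0 in Ctr + 4-OHT and 40.8, 38.2, 36.4 and 37.3 in *Smg6*-iKO, again with overlap. Their log2 fold changes against Ctr were -0.096 ± 0.054 and -0.073 ± 0.058. *Cnot10*, which binds *Cnot11* in a module of its own, had the narrowest interval of the complex against Ctr (-0.084 to 0.13). *Cnot3*, *Cnot6l*, *Cnot7*, *Cnot9* and *Cnot11* had log2 fold changes between -0.12 and 0.12 against Ctr. Of these, *Cnot7* had all its *Smg6*-iKO libraries above all Ctr libraries (0.12 ± 0.051, edgeR adjusted p = 0.169), while it overlapped with Ctr + 4-OHT.

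For decapping, 0 of 8 genes were called against either control, beside 1.17% and 9.25% of all genes, and the median log2 fold change was 0.027 relative to Ctr + 4-OHT (4 of 8 below 0) and -0.057 against Ctr (6 of 8 below 0), beside 47.2% and 49% of all genes below 0. The first of these turned negative with the length correction (-0.026) and without Ctr + 4-OHT SMH_125 or *Smg6*-iKO SMH_132. *Dcp2*, the decapping enzyme, stood at 106 ± 1.21 CPM in Ctr, 106 ± 9.23 in Ctr + 4-OHT and 99.4 ± 3.34 in *Smg6*-iKO, with a log2 fold change of -0.081 ± 0.065 relative to Ctr + 4-OHT and -0.089 ± 0.050 against Ctr. *Edc3*, *Edc4* and *Patl1*, which enhance decapping, had log2 fold changes of 0.067, 0.11 and 0.084 against Ctr + 4-OHT and of 0.062, -0.0094 and -0.070 against Ctr. Reads of *Edc4* can be lost to a neighbor, since 8.3% of its exon bases lie in *Nrn1l* on the same strand.

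*Pnrc2*, a protein that links UPF1 of nonsense-mediated decay to DCP1A, had the largest difference from Ctr in this group. It stood at 118, 119 and 101 CPM in Ctr, 92.1, 100.4, 119 and 87.2 in Ctr + 4-OHT and 85.7, 105, 92.9 and 92.4 in *Smg6*-iKO, with wide spread within the groups and overlap between all 3. The log2 fold change was -0.26 ± 0.079 relative to Ctr (edgeR adjusted p = 0.0649) and -0.073 ± 0.097 against Ctr + 4-OHT (edgeR adjusted p = 0.760). Within embryos SMH_128, SMH_132 and SMH_133 the *Smg6*-iKO library lay below its Ctr library by 0.17, 0.35 and 0.13 on the log2 CPM scale, and with the embryo as a block *Pnrc2* fell against Ctr (-0.22 ± 0.052, edgeR adjusted p = 0.00675). *Ddx6*, the helicase of P-bodies, likewise fell against Ctr with the block (-0.22 ± 0.051, edgeR adjusted p = 0.00506, beside -0.18 ± 0.065 and 0.0999 without it). Both genes were also called lower against Ctr by DESeq2 on the groups compared and by edgeR with the length correction (edgeR adjusted p = 0.0365 for *Pnrc2* and 0.0415 for *Ddx6*). The Ctr + 4-OHT libraries of *Ddx6*, too, all lay below Ctr (-0.15 ± 0.062, edgeR adjusted p = 0.575).

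*Dcp1b*, one of the 2 DCP1 activators of DCP2, differed most from Ctr + 4-OHT in this group. Its CPM were 20.8, 23.7 and 23.4 in Ctr, 24.2, 23.1, 23.4 and 22.3 in Ctr + 4-OHT and 24.5, 23.4, 25.7 and 27.7 in *Smg6*-iKO. *Smg6*-iKO had the highest mean but overlapped with both controls, and the log2 fold changes were 0.14 ± 0.069 and 0.16 ± 0.078 (edgeR adjusted p = 0.355 and 0.210). The paralog *Dcp1a* stood at -0.012 ± 0.064 and -0.044 ± 0.057.

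The LSM ring held 2 of the 3 called members. Its subunit LSM1 is found in the cytoplasmic ring that acts in decay, and the other 6 occur there and also in a nuclear ring that holds U6 small nuclear RNA. Its 7 genes had a median log2 fold change of -0.18 relative to Ctr + 4-OHT, with 6 of 7 below 0 and 0 called, and of -0.16 against Ctr, with 7 of 7 below 0 and 2 called, beside medians of 0.012 and 0.0055 over all genes tested. Of all genes, 47.2% were below 0 and 1.17% called in the first comparison, and 49% and 9.25% in the second. Both medians stayed negative under every alternative tried, from -0.23 to -0.15 in the first comparison and from -0.23 to -0.12 in the second. The mean log2 CPM over the 7 genes was 3.95 to 4.02 in the 4 *Smg6*-iKO libraries, below the 4.12 to 4.23 of Ctr and the 4.12 to 4.22 of Ctr + 4-OHT. No other complex had its *Smg6*-iKO libraries apart from those of both controls on this measure. Between the controls the median of the ring was 0.0069.

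**Figure D3:**
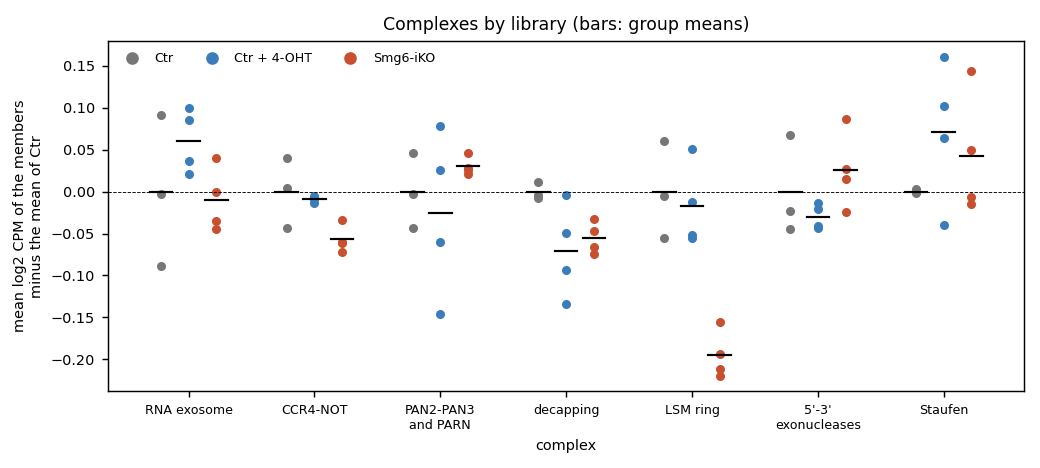
Mean log2 CPM over the members of each complex in each library, minus the mean of the Ctr libraries (points; black bars are group means, n = 3, 4 and 4). The LSM ring is the complex whose 4 *Smg6*-iKO libraries lie below all control libraries, and the members of a complex are not replicates.

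*Lsm4* had the lowest adjusted p of all members against Ctr. It lies at chr8:70673248-70678752 on the plus strand (GRCm38), and its CPM were 62.5, 56.3 and 62.8 in Ctr, 57.9, 52.5, 57.3 and 49.9 in Ctr + 4-OHT and 45.5, 50.02, 49.1 and 47.2 in *Smg6*-iKO. All *Smg6*-iKO libraries lay below all Ctr libraries, while Ctr + 4-OHT lay between and overlapped with both. *Lsm4* fell against Ctr, with a log2 fold change of -0.34 ± 0.063 (SE; 95% interval -0.47 to -0.20, edgeR adjusted p = 0.0111), or -0.31 ± 0.056 with the block. Against Ctr + 4-OHT it was -0.17 ± 0.065 (edgeR adjusted p = 0.223), and between the controls -0.15 ± 0.077 (edgeR adjusted p = 0.649). Its call against Ctr was lost only without Ctr SMH_128 (edgeR adjusted p = 0.0559).

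*Lsm3* (chr6:91515928-91522625, plus strand), whose upstream sequence is printed above, was the ring member that lay below both controls in every *Smg6*-iKO library. Its CPM were 19.7, 20.2 and 20.8 in Ctr, 18.9, 20.7, 21.4 and 18.9 in Ctr + 4-OHT and 15.0, 17.9, 16.0 and 16.6 in *Smg6*-iKO. Of all genes, 3.5% lay below both controls in this way, and of the 44 members *Exosc8* was the other. *Lsm3* fell against Ctr by a log2 fold change of -0.30 ± 0.077 (edgeR adjusted p = 0.0359), and against Ctr + 4-OHT the value was -0.27 ± 0.078 (edgeR adjusted p = 0.121). Its two-sided exact permutation p of 0.0286 against Ctr + 4-OHT, again the smallest possible, only restates the lack of overlap. Its log2 fold change against Ctr stayed between -0.35 and -0.26 with any 1 library left out, but the call was lost in 6 of 7 such fits, without Ctr SMH_128, SMH_132 or SMH_133 (edgeR adjusted p = 0.0854, 0.0899 and 0.0873) and without *Smg6*-iKO SMH_127, SMH_132 or SMH_133 (0.0816, 0.0798 and 0.0737). Of its exon bases, 6.3% are shared with a gene on the same strand, and reads there were not counted.

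*Lsm6* differed more from Ctr + 4-OHT than from Ctr. It stood at 39.4, 40.1 and 37.1 CPM in Ctr, 42.0, 39.5, 41.3 and 45.0 in Ctr + 4-OHT and 37.2, 34.9, 34.5 and 32.8 in *Smg6*-iKO, so that *Smg6*-iKO lay below Ctr + 4-OHT in every library and overlapped with Ctr by 1 library. The log2 fold change was -0.26 ± 0.064 relative to Ctr + 4-OHT (edgeR adjusted p = 0.0882) and -0.16 ± 0.061 against Ctr (edgeR adjusted p = 0.129). *Lsm6* fell with the block (-0.19 ± 0.059, edgeR adjusted p = 0.0281), and with the length correction it also fell against Ctr + 4-OHT (-0.31, edgeR adjusted p = 0.0452).

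*Lsm5* had the fewest reads of the ring. At 1.84, 2.72 and 2.602 CPM in Ctr, 1.97, 2.34, 3.13 and 2.12 in Ctr + 4-OHT and 1.98, 1.69, 1.76 and 2.06 in *Smg6*-iKO it overlapped between all groups, and its log2 fold changes of -0.34 ± 0.17 and -0.35 ± 0.18 did not pass (edgeR adjusted p = 0.355 and 0.234). Its windows recur in 2 processed pseudogenes (21%), as do those of *Lsm7* (14.3%), so that their levels are uncertain. *Lsm1*, the subunit that sets the cytoplasmic ring apart from the nuclear one, was close to 0 against Ctr: its log2 fold change was -0.058 ± 0.075 relative to Ctr + 4-OHT and -0.0048 ± 0.067 against Ctr, and *Lsm1* was above 0 in the *Smg6*-iKO library of embryo SMH_128 relative to its Ctr library. *Lsm2* had -0.18 ± 0.084 and -0.12 ± 0.090. *Lsm7* had 0.075 ± 0.098 and -0.12 ± 0.091, and was the only ring gene above 0 against Ctr + 4-OHT. *Lsm8*, which takes the place of LSM1 in the nuclear ring and is not among the 44, was looked at after its values were seen. Its CPM were 45.2 ± 2.12 in Ctr, 47.2 ± 3.41 in Ctr + 4-OHT and 40.7 ± 0.798 in *Smg6*-iKO, where every library lay below both controls. The log2 fold changes of *Lsm8* did not pass (-0.20 ± 0.063 and -0.15 ± 0.055, edgeR adjusted p = 0.148 and 0.106), and whether *Lsm1* and *Lsm8* differ was not tested.

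Of the exonucleases that start at the 5′ end, *Xrn2*, the nuclear one, lay above all libraries of both controls in *Smg6*-iKO. Its CPM were 160.1, 169.6 and 174 in Ctr, 174, 174, 173 and 170.3 in Ctr + 4-OHT and 183, 181, 178 and 179.8 in *Smg6*-iKO. The gap was narrow: the log2 fold change was 0.077 ± 0.042 relative to Ctr + 4-OHT and 0.11 ± 0.051 against Ctr, and neither passed (edgeR adjusted p = 0.397 and 0.209). *Xrn1*, the cytoplasmic one, stood at 108, 119 and 102 CPM in Ctr, 103, 104, 101 and 102 in Ctr + 4-OHT and 113, 103, 107 and 98.9 in *Smg6*-iKO and overlapped between the groups. Its log2 fold changes were 0.060 ± 0.052 (95% interval -0.056 to 0.18) and -0.055 ± 0.067 (-0.20 to 0.092), so that a change in *Xrn1* RNA as large as 1.41-fold lay outside both intervals.

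The exosome held 0 called genes of 11 against either control, beside 1.17% and 9.25% of all genes, with a median log2 fold change of -0.045 relative to Ctr + 4-OHT (9 of 11 below 0) and -0.016 against Ctr (7 of 11 below 0), beside 47.2% and 49% of all genes below 0. The second turned positive with upper-quartile normalization and without Ctr SMH_133, *Smg6*-iKO SMH_127 or *Smg6*-iKO SMH_132. *Exosc8*, a subunit of the barrel of the complex, lay below both controls in every *Smg6*-iKO library, at 67.4, 63.5 and 67.0 CPM in Ctr, 63.7, 65.6, 68.7 and 66.0 in Ctr + 4-OHT and 58.8, 61.6, 58.3 and 58.9 in *Smg6*-iKO. The log2 fold change was -0.14 ± 0.051 relative to Ctr + 4-OHT (edgeR adjusted p = 0.198) and -0.15 ± 0.054 against Ctr (edgeR adjusted p = 0.103). *Exosc8* fell against Ctr with the embryo as a block (-0.15 ± 0.051, edgeR adjusted p = 0.0479) and with the length correction (edgeR adjusted p = 0.0458).

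Of the 3 nuclease genes, *Dis3l*, the cytoplasmic one, differed most from Ctr + 4-OHT. It stood at 33.8, 31.3 and 33.7 CPM in Ctr, 35.5, 36.8, 40.6 and 35.6 in Ctr + 4-OHT and 32.6, 33.4, 28.9 and 33.5 in *Smg6*-iKO. Ctr + 4-OHT lay above all libraries of the other groups, which overlapped. The log2 fold change was -0.20 ± 0.071 relative to Ctr + 4-OHT (edgeR adjusted p = 0.195), -0.035 ± 0.068 against Ctr and 0.17 ± 0.075 between the controls (edgeR adjusted p = 0.586). *Exosc10*, the nuclear nuclease and the highest exosome gene per length, stood at 90.4, 92.5 and 98.8 CPM in Ctr, 87.5, 96.2, 92.6 and 94.6 in Ctr + 4-OHT and 95.5, 96.6, 98.0 and 104 in *Smg6*-iKO, and *Dis3* had log2 fold changes of -0.045 ± 0.054 and 0.025 ± 0.069. *Exosc10* had 0.097 ± 0.052 and 0.069 ± 0.055, with overlap between all groups.

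Of the barrel and cap subunits, *Exosc5* was the lowest per length, at 13.7, 14.9 and 15.5 CPM in Ctr, 15.3, 15.1, 14.8 and 15.3 in Ctr + 4-OHT and 14.4, 14.7, 16.1 and 16.2 in *Smg6*-iKO, and overlapped between the groups. *Exosc3* and *Exosc7* lay below Ctr + 4-OHT in every *Smg6*-iKO library but overlapped with Ctr, with log2 fold changes of -0.14 ± 0.067 and -0.042 ± 0.053 against Ctr + 4-OHT. *Exosc1*, *Exosc2*, *Exosc4* and *Exosc9* overlapped between *Smg6*-iKO and each control, with log2 fold changes from -0.082 to -0.029 relative to Ctr + 4-OHT and between -0.029 and 0.078 relative to Ctr. In embryo SMH_128 the *Smg6*-iKO library was above its Ctr library by 0.32 for *Exosc1*, 0.24 for *Exosc3* and 0.19 for *Exosc9* on the log2 CPM scale, while in embryos SMH_132 and SMH_133 the same genes were below 0. These 3 genes therefore had no common direction within embryos.

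The Staufen genes encode double-stranded RNA-binding proteins, of which STAU1 recruits UPF1 to its targets and STAU2 carries mRNAs in neurons. *Stau1* stood at 77.9, 83.1 and 83.7 CPM in Ctr, 75.1, 81.3, 78.9 and 81.5 in Ctr + 4-OHT and 82.8, 73.6, 78.5 and 83.8 in *Smg6*-iKO and *Stau2* at 56.5, 53.1 and 52.9 CPM in Ctr, 67.7, 59.3, 52.9 and 67.7 in Ctr + 4-OHT and 65.0, 59.4, 55.1 and 56.4 in *Smg6*-iKO. All groups overlapped for both genes. *Stau1* had log2 fold changes of 0.020 ± 0.059 and -0.033 ± 0.062 against Ctr + 4-OHT and Ctr, and *Stau2* of -0.058 ± 0.088 and 0.12 ± 0.069. Between the controls *Stau2* had 0.19 ± 0.094 (edgeR adjusted p = 0.646).

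Counted over all members, the groups did not overlap for 9 of 44 between *Smg6*-iKO and Ctr + 4-OHT (20.5%, beside 10.8% of all genes), for 10 of 44 between *Smg6*-iKO and Ctr (22.7%, beside 23.2%) and for 5 of 44 between the controls (11.4%, beside 8.66%). *Smg6*-iKO lay beyond all libraries of both controls for 4 of 44 (9.09%, beside 6.4% of all genes): *Pan3* and *Xrn2* above, *Exosc8* and *Lsm3* below. *Cnot6*, *Parn* and *Ddx6* lay below Ctr in both drug-treated groups, and for them *Smg6*-iKO overlapped with Ctr + 4-OHT.

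The comparison within embryos used the 3 embryos that gave a library to both Ctr and *Smg6*-iKO. The difference had the same sign in all 3 for 27 of 44 members (61.4%, beside 51.5% of all genes). It was below 0 for 19 members (43.2%, beside 25.7%) and above 0 for 8 (18.2%, beside 25.7%). The 8 above were *Exosc4*, *Exosc5*, *Exosc10*, *Cnot7*, *Pan3*, *Dcp1b*, *Xrn2* and *Stau2*. Of the LSM ring, *Lsm2*, *Lsm3*, *Lsm4*, *Lsm5* and *Lsm6* were below 0 in all 3 embryos. For *Lsm4* the differences were -0.32, -0.20 and -0.41, for *Lsm3* -0.14, -0.34 and -0.32 and for *Lsm6* -0.17, -0.22 and -0.17 on the log2 CPM scale in embryos SMH_128, SMH_132 and SMH_133.

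**Figure D4:**
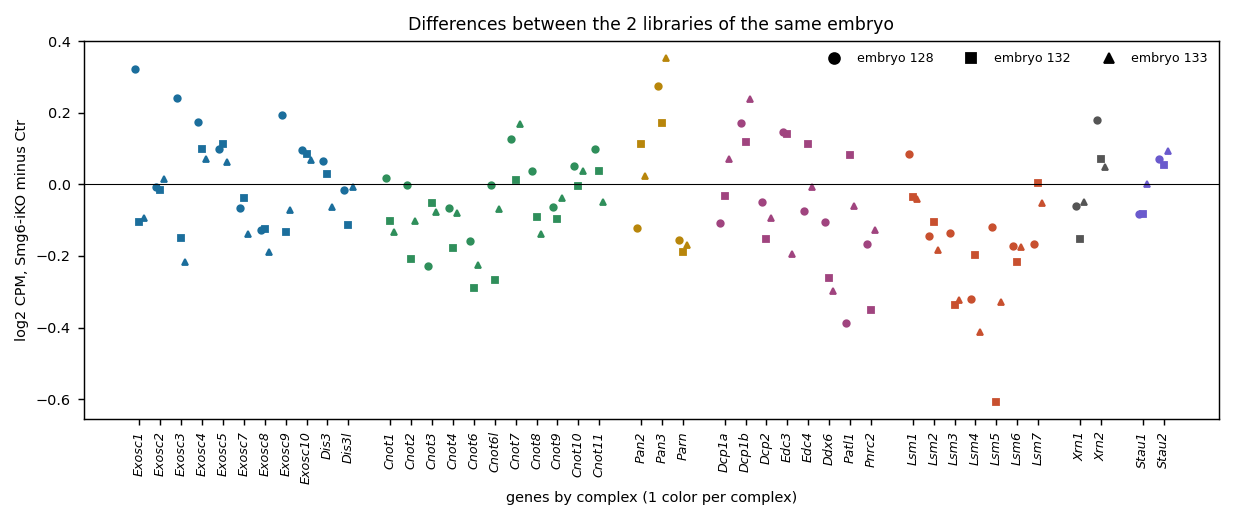
Log2 CPM of the *Smg6*-iKO library minus that of the Ctr library of the same embryo, for the 44 genes by complex (circle, embryo SMH_128; square, SMH_132; triangle, SMH_133). *Pan3* is above 0 in all 3 embryos, and *Lsm2* to *Lsm6* are below 0.

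On a scale per length (CPM per kb of exon, mean ± SD over the 11 libraries), the machinery spanned a wide range. *Lsm4* was the highest member at 51.7 ± 5.77, followed by *Pnrc2* at 45.7 ± 5.65 and *Xrn2* at 43.8 ± 1.63, and these 3 overlapped in part between libraries. The order of *Pnrc2* and *Xrn2* turned between groups: *Pnrc2* had 50.8 and *Xrn2* 42.2 in Ctr, and 42.5 and 45.4 in *Smg6*-iKO. *Exosc5* at 2.41 ± 0.115 and *Lsm5* at 2.78 ± 0.569 were the lowest. Subunits that assemble into 1 complex differed widely in RNA: within the LSM ring, *Lsm4* was above the next gene, *Lsm6* at 9.45 ± 0.889, in 11 of 11 libraries, and *Lsm1*, *Lsm2* and *Lsm3* followed at 7.72 ± 0.498, 7.003 ± 0.698 and 6.80 ± 0.766, with *Lsm2* above *Lsm3* in only 6 of 11. Within the exosome, *Exosc10* led at 26.5 ± 1.21 in 11 of 11 libraries. *Exosc1*, *Exosc9* and *Exosc2* did not differ beyond their spread (9.83 ± 1.02, 9.51 ± 0.849 and 9.32 ± 0.860).

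**Figure D5:**
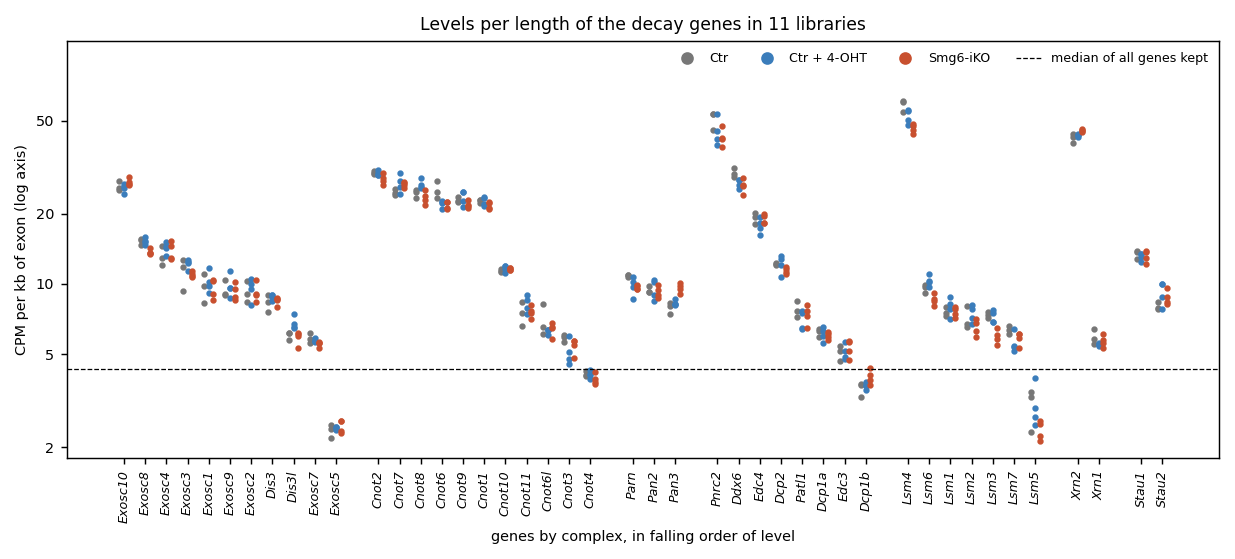
Level per length (CPM per kb of exon, log axis) of the 44 genes in each of the 11 libraries, by complex and in falling order of the mean. Points are libraries colored by group, and the dashed line is the median of all genes kept (4.33); *Dcp1b*, *Cnot4*, *Exosc5* and *Lsm5* have means below it.

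In CCR4-NOT, *Cnot2* led at 29.2 ± 1.30 in 11 of 11 libraries, and *Cnot7*, *Cnot8*, *Cnot6*, *Cnot9* and *Cnot1* followed between 26.2 and 22.3 with overlapping libraries. *Cnot4* closed the order at 4.03 ± 0.171. *Pnrc2* led the decapping genes, *Ddx6* followed at 27.5 ± 2.03, and *Dcp1b* was last at 3.76 ± 0.280. *Parn*, *Pan2* and *Pan3* were close, at 10.0 ± 0.711, 9.38 ± 0.620 and 8.66 ± 0.818. *Xrn2* stood above *Xrn1* (5.68 ± 0.323) and *Stau1* (13.2 ± 0.576) above *Stau2* (8.70 ± 0.844) in 11 of 11 libraries. The exon length behind these values is the sum over all annotated exons. TPM uses the same lengths, so its same order within every complex is no separate check on them.

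The 6 pairs of paralogs were set side by side as ratios of their levels per length. *Cnot6* exceeded *Cnot6l* by a ratio of 3.67 ± 0.365 in Ctr (n = 3), 3.52 ± 0.183 in Ctr + 4-OHT (n = 4) and 3.41 ± 0.193 in *Smg6*-iKO (n = 4). *Cnot7* and *Cnot8* were near equal in the controls (1.01 ± 0.0729 and 1.01 ± 0.0560), and the ratio was 1.14 ± 0.0590 in *Smg6*-iKO, with a range of 1.05 to 1.18 that overlapped with both controls. The ratio of *Dcp1a* to *Dcp1b* was 1.75 ± 0.181, 1.67 ± 0.138 and 1.51 ± 0.0740 in the same order, that of *Dis3* to *Dis3l* 1.38 ± 0.133, 1.29 ± 0.0635 and 1.44 ± 0.127, and that of *Stau1* to *Stau2* 1.68 ± 0.126, 1.44 ± 0.190 and 1.51 ± 0.131. *Xrn1* stood at 0.140 ± 0.0127, 0.127 ± 0.00123 and 0.125 ± 0.00650 of *Xrn2*. For each of the 6 pairs the ratios of *Smg6*-iKO overlapped with those of both controls, except for *Dcp1a* to *Dcp1b*, which overlapped with Ctr + 4-OHT only. The highest *Smg6*-iKO ratio of that pair (1.6093) lay just below its lowest Ctr ratio (1.6097).

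Beyond the 44, a list of 56 other decay genes (SKI complex, nuclear exosome cofactors, other nucleases, P-body proteins, poly(A) and microRNA adaptors, and factors that bind RNA elements) were tested in the same fits. Against Ctr + 4-OHT 0 of 56 were called by edgeR (beside 1.17% of all genes), against Ctr 2 of 56 (3.57%, beside 9.25% of all genes), and between the controls 0 of 56 (beside 0.221%). The 2 genes, *Zfp36l1* and *Zfp36l2*, encode proteins that bind AU-rich elements and recruit CCR4-NOT, and both fell. *Zfp36l1* stood at 66.3 ± 8.22 CPM in Ctr and 50.6 ± 2.75 in *Smg6*-iKO (log2 fold change -0.39 ± 0.083, edgeR adjusted p = 0.0190), but also at 48.5 ± 13.3 in Ctr + 4-OHT. *Zfp36l2* stood at 40.1 ± 1.59 in Ctr, 39.2 ± 7.29 in Ctr + 4-OHT and 33.5 ± 2.41 in *Smg6*-iKO (log2 fold change against Ctr -0.26 ± 0.067, edgeR adjusted p = 0.0380). With the embryo as a block 13 of 56 (23.2%) were called, beside 21.9% of all genes.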

How the data were processed

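RNA was sequenced from 11 NPC cultures, 3 Ctr, 4 Ctr + 4-OHT and 4 *Smg6*-iKO, as strand-specific total RNA after ribosomal RNA depletion, in single reads of 50 bases. The authors demultiplexed the reads with bcl2fastq 1.8.4, aligned them to GRCm38 with STAR 2.5.4b and counted them per gene with featureCounts 1.5.0, as the submitters' processing notes and the study's methods give it, and deposited whole-number counts per gene and library. Reads that map to several places or overlap several genes were not counted, which lowers the counts of genes with close copies. Identifiers were paired with symbols by a GENCODE table of GRCm38 (53620 of 53801 matched).

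Each comparison was fitted on its own groups over all genes with edgeR 4.0.16 in R 4.3.3 (filterByExpr, TMM, quasi-likelihood test), with Benjamini-Hochberg adjustment over all genes tested and a threshold of 0.05. Both iKO comparisons use the same *Smg6*-iKO libraries, and both Ctr comparisons the same Ctr libraries. CPM are scaled by TMM over the 11 libraries and 18123 genes, and log2 CPM have a prior count of 2. Exact permutation tests were two-sided. The steps were tested on simulated data. The alternatives were DESeq2 1.42.0, limma-voom (limma 3.58.1), other scalings and filters (none, or at least 10 counts in every library), 1 fit of all libraries, a loess correction for gene length (span 0.3), each library left out, and the embryo as a block. Embryo numbers in the labels name the animal, so the 3 embryos with both libraries pair them, and their deviations correlated at 0.328 to 0.425, against -0.265 to -0.0813 between different embryos. Deviations from the mean of 3 Ctr libraries cancel out, so the negative values follow from the positive ones and are no separate evidence of the pairing.

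Values of every library are given for members that were called, that lay beyond both controls, or that had the largest log2 fold change against a control or the highest or lowest level per length in their complex. *Lsm6* and, outside the list, *Lsm8* were added after their values were seen. The members and the lists were chosen with earlier results of these data known. Depth was 26418249 to 33756875 counted reads. No pair of libraries was a duplicate (chi-square per gene 11.0 to 43.0).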

Additional observations from a re-analysis of the deposited data

Results flagged for a closer look

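In 3 of 88 groups of 4 libraries, a single library of a decay gene stood apart by Dixon's criterion (gap to the nearest library over the range of the group above the 95% critical value), where chance flags about 1 in 20. *Exosc8* in *Smg6*-iKO had its highest library in embryo SMH_128, at 61.6 CPM beside 58.3 to 58.9 in the other 3 (gap over range 0.840). *Pan3* in Ctr + 4-OHT had its highest library in embryo SMH_129, at 129 CPM beside 122 to 123 (0.886). *Cnot6l*, a CCR4-type nuclease subunit, had its lowest Ctr + 4-OHT library in embryo SMH_131, at 62.3 CPM beside 65.2 to 65.6 (0.876). All of these gaps are under 6 CPM, and for *Exosc8* and *Pan3* the library that stood apart was the one nearest to the group it was compared with.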

How the results depend on the processing

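Against Ctr + 4-OHT, where 0 of 44 members were called, upper-quartile normalization called 1 (*Pan3*; 1.27% of all genes), the length correction 1 (*Lsm6*; 1.42%), the fit of all libraries 2 (*Pan3*, *Lsm6*; 2.67%), DESeq2 on the groups compared 3 (6.06%) and DESeq2 on all libraries 4 (*Exosc8*, *Pan3*, *Lsm3*, *Lsm6*; 8.57%). Against Ctr, where 3 were called, no filter on low counts called 5 (7.57% of all genes), DESeq2 on the groups compared 6 (16.9%), the length correction 8 (10.9%), the replicate block 9 (21.9%) and the replicate block with the length correction 10 (23.3%). Leaving out each library in turn gave 0 to 0 members against Ctr + 4-OHT, 1 to 4 against Ctr and 0 to 0 between the controls. The median of the members moved with the length correction to -0.090 against Ctr + 4-OHT and -0.094 against Ctr (-0.091 with the replicate block), as did the median of all genes, to -0.040, -0.031 and -0.029. Between the controls, the log2 fold change of *Exosc8* was -0.00026 with at least 10 counts in every library and -0.00056 by DESeq2 on all libraries, and ranged from -0.026 to 0.024 with 1 library left out, while that of *Lsm3* ranged from -0.054 to 0.013. Over all genes, calls against Ctr + 4-OHT went from 206 to 418 without a filter, 484 with all libraries in 1 fit, 873 and 1150 with DESeq2, and as low as 66 without *Smg6*-iKO SMH_132. Against Ctr they went from 1663 to 2714 without a filter, 3873 with the block, 796 with all libraries in 1 fit and as low as 570.0 without *Smg6*-iKO SMH_133. Between the controls they went from 39 to 198 without a filter, 60 with all libraries in 1 fit, 169 and 239 with DESeq2, and 5 without Ctr SMH_128. With the length correction, the comparison with Ctr + 4-OHT had 94 higher and 156 lower calls in place of 73 lower ones of 206, and that with Ctr 1405 lower ones of 1955 in place of 896 of 1663. The block changed no call of a member other than the 6 named with it. Counts of members whose groups do not overlap kept their values with DESeq2's size factors (9, 10 and 5). The causes were not tested. *Lsm5* had the fewest reads of the members, at 46 to 97 per library.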
